A study of Mus musculus with 8 samples.

Results

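The genes described are 4 Wnt ligands (Wnt2, Wnt5a, Wnt10b and Wnt11) and 6 secreted Wnt antagonists (Sfrp1, Sfrp2, Sfrp4, Dkk2, Dkk3 and Wif1), 10 of the 19057 genes named on the array. They were chosen by gene symbol from the array's annotation. Of their 16 probes, 12 were kept, 6 for the ligands and 6 for the antagonists, because 4 or more of the 8 arrays detected them with a detection p below 0.05. Detection on all 4 arrays of a fraction meets the same limit. These 12 probes cover 8 of the 10 genes, while the only probes of Dkk2 and Wif1 fell below the limit.

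The cells came from epididymal white fat of lean C3H mice (C3H/HeOuJ in the series title) aged 3 months, with CHOW in the sample titles and no other genotype or treatment given. They were sorted from the stromal vascular fraction as progenitors lacking CD45 and CD31 and carrying Gp38 (podoplanin) and PDGFRα, and divided by surface CD9, a tetraspanin membrane protein, into CD9high and CD9low. Each fraction gave 4 samples, each on its own Illumina mouse bead array. Whether each sample was 1 animal or a pool is not stated in the labels, and the p-values reflect the spread among these samples alone, which may be technical.

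Wnts are secreted, lipid-modified glycoproteins that bind Frizzled receptors. With the co-receptors LRP5 and LRP6 they stabilise beta-catenin, which then acts with TCF and LEF factors on target genes, and some, typically Wnt5a and Wnt11, signal without beta-catenin. Secreted frizzled-related proteins (Sfrp genes) and Wif1 bind the Wnts themselves, whereas Dickkopf proteins of the Dkk2 kind bind the co-receptors. In fat, Wnt10b is known as a ligand that restrains the step from preadipocyte to adipocyte.

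The sequence just before the transcription start is shown for the measured genes held in the RefSeq promoter table (GRCm38.p6), to set Wnt10b, the ligand that rose in CD9high, beside Wnt2, Wnt11 and Sfrp2, which did not pass the test. The table held 6 of the 10 genes. Each stretch is the 250 bases before the listed start, written 5′ to 3′ in the direction of transcription, and Wnt11 is shown at the first of its listed starts. The stretches lie at chr15:98778151-98778400 on the minus strand, chr6:18030446-18030695 on the minus strand, chr7:98834862-98835111 on the plus strand and chr3:83766071-83766320 on the plus strand. Capitals mark every match, on either strand, to the core TCF and LEF motif CTTTGA, the GC box GGGCGG, the TATA box TATAAA or the CCAAT box CCAAT.
Wnt10b: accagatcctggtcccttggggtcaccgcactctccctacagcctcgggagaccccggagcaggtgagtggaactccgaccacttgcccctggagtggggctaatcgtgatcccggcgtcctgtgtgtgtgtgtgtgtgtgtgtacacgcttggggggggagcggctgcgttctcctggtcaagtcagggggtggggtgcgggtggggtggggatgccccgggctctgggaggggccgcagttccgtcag
Wnt2: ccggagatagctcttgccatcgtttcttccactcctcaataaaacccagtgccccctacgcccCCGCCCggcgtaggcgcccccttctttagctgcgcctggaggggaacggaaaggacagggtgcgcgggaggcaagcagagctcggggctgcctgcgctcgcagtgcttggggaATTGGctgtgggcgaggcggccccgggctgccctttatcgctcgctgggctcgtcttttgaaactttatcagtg
Wnt11: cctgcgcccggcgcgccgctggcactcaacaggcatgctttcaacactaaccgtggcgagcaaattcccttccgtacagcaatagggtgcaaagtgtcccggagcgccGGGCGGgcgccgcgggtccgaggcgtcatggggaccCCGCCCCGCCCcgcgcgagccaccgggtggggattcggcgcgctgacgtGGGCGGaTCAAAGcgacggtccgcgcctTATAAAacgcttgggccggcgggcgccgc
Sfrp2: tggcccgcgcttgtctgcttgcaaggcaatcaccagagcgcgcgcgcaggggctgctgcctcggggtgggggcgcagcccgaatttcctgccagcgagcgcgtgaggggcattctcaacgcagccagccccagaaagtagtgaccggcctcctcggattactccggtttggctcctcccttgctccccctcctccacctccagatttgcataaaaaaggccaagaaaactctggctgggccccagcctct
At the start shown, Wnt11 held 1 TCF and LEF core, 1 TATA box and 4 GC boxes, some of which overlap. Its second listed start, not shown, held 0 matches to the 4 motifs, with 56.8% G and C. Wnt2 held 1 GC box and 1 CCAAT box, and the stretches of Wnt10b and Sfrp2 held 0 matches to any of the 4 motifs. Over the 32851 starts in the table, 13.8% had the TCF and LEF core within the same 250 bases, 32.7% a GC box, 12.4% a TATA box and 33.8% a CCAAT box. The stretches were rich in G and C, at 66.8% for Wnt10b, 63.6% for Wnt2, 70.8% for Wnt11 and 63.6% for Sfrp2, against a median of 52.4% over all starts. A match describes these letters alone.

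Array values are log2 intensities after normalization, and averages carry their SD over the 4 arrays of a fraction. Differences are CD9high minus CD9low on the log2 scale, from limma with Benjamini-Hochberg adjustment over all 10724 genes tested, each gene standing by its brightest tested probe. Between 41.1% and 51.1% of probes were detected per array. CD9low replicate 2 had the fewest and also correlated least with its own fraction (mean r of 0.852, against 0.910 to 0.941 for the other arrays), so results that turn on it are given with and without it. Cd9, the sort marker and a check of the labels, stood at 8.44 ± 0.14 in CD9high and 4.80 ± 0.52 in CD9low. Pdgfra, Pdpn and the other progenitor markers were measured, 9 of 10 on the list, with summed linear intensities of 30476 to 38081 in CD9high and 28455 to 36258 in CD9low, and 1 of them, Dpp4, was higher in CD9high (1.60, adjusted p = 0.0124). For each of the 8 lists of other cell types (mesothelial, macrophage, lymphocyte, endothelial, pericyte and smooth muscle, adipocyte, Schwann and epididymal epithelium) the summed intensities of the fractions overlapped. In these lists 0 measured markers passed the limma test, with 3 at an unadjusted p under 0.05. These were Gpm6a of the mesothelial list (0.86), Notch3 of the pericyte and smooth muscle list (-0.82) and Car3 of the adipocyte list (-1.20). Some lists still leaned one way. The 9 pericyte and smooth muscle markers summed to 2644 to 3574 in CD9high and 3134 to 5279 in CD9low, with 8 of 9 below 0 in their difference, 6 of 7 endothelial markers were also below 0 (1179 to 1679 against 1108 to 3669), and all 4 measured mesothelial markers were above 0 (276.6 to 556.7 against 188.8 to 350.8). Plin1, Retn and Slc2a4 of the adipocyte list were detected on 0 arrays, whereas 5 others, Adipoq, Cidec, Car3, Lep and Pck1, were measured. Lep and Pck1 were detected on all 4 arrays of each fraction. Car3 differed by -1.20 without passing (adjusted p = 0.226), and 2 of the 5 were above 0. The part of these cells in the results on Wnt genes was not tested. In sorted bulk samples, fewer cells expressing a gene and less RNA per cell cannot be told apart.

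Among the ligands, Wnt10b rose in CD9high, and the other measured ligands Wnt2, Wnt5a and Wnt11 did not pass the test. Over all genes tested, 1.13% passed as higher in CD9high and 0.559% as lower. Wnt10b read 7.55, 7.93, 6.81 and 7.00 in CD9high replicates 1 to 4, and 5.29, 5.70, 4.41 and 4.45 in CD9low replicates 1 to 4. Every CD9high array lay above every CD9low array, with a gap of 1.11 between the nearest arrays. The means were 7.32 ± 0.51 and 4.96 ± 0.64, a difference of 2.36 (SE 0.36, adjusted p = 0.0111). With an offset of 50 in place of 16 added before taking logs it was 1.56 (adjusted p = 0.0139). In the deposited signals, which are not normalized between arrays, the same probe stood at 133, 226, 114 and 141 units in CD9high. The CD9low arrays gave 22.3, 20.2, 2.57 and 3.98 units, of which the last pair, replicates 3 and 4, were not above background. The gene was thus detected on 2 of 4 CD9low arrays.

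A second, dimmer Wnt10b probe was detected on 4 of 4 CD9high and 0 of 4 CD9low arrays. Its normalized values were 5.62, 6.60, 5.45 and 5.33 in CD9high replicates 1 to 4, against 4.65, 4.65, 4.29 and 4.60 in CD9low. The fractions did not overlap here either. As the probe was not well above background in CD9low, its fold is a bound, at least 1.96-fold, from the CD9high mean against the dimmest detected signal of each CD9low array (or the probe's own signal where higher). The probe missed the threshold in the limma fit over all probes (adjusted p = 0.0991). The call on the gene was lost without CD9high replicate 1 (adjusted p = 0.0542), without replicate 1 of both fractions (0.130) and without replicate 3 of both fractions (0.0823). On slide 1, with 3 arrays per fraction, the difference was 2.30 (adjusted p = 0.0782), on slide 2, with 1 array per fraction and no test, 2.55, and with the slide as a block the adjusted p was 0.0134.

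Wnt2, a ligand of the beta-catenin branch, differed by 1.63 (SE 0.55, adjusted p = 0.270, 95% confidence interval 0.42 to 2.84), and did not pass. Its arrays read 7.51, 8.01, 7.01 and 8.18 in CD9high replicates 1 to 4 and 5.68, 7.31, 4.45 and 6.74 in CD9low. CD9low was widely spread, from the undetected replicate 3 to replicate 2, which lay above CD9high replicate 3, so that the fractions overlapped. Without CD9low replicate 2 the difference was 2.05 (adjusted p = 0.0710), and without CD9low replicate 3 it was 1.10 (adjusted p = 0.418). Weighting arrays by their quality gave 1.84 and passed (adjusted p = 0.0472).

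Wnt5a and Wnt11, the ligands best known outside the beta-catenin branch, showed no difference past the spread between arrays. Wnt5a was bright on all 8 arrays, at 9.92, 10.21, 10.35 and 9.56 in CD9high replicates 1 to 4 and 10.04, 9.54, 10.47 and 9.82 in CD9low. The fractions lay on top of each other, with a difference of 0.04 (SE 0.27, adjusted p = 0.975) and a 95% confidence interval of -0.56 to 0.64. A second Wnt5a probe, also detected on all 8 arrays, ran from 8.10 to 8.73 and differed by -0.08, while a further probe was detected on 0 arrays. Wnt11 was dim but detected on all 8 arrays, from 4.95 to 5.74 in CD9high and from 5.07 to 5.49 in CD9low. Its difference was -0.02 (SE 0.24, adjusted p = 0.988), with an interval of -0.55 to 0.52. A value so close to the offset compresses differences, so a small change of Wnt11 would not be detectable at this signal.

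**Figure D1:**
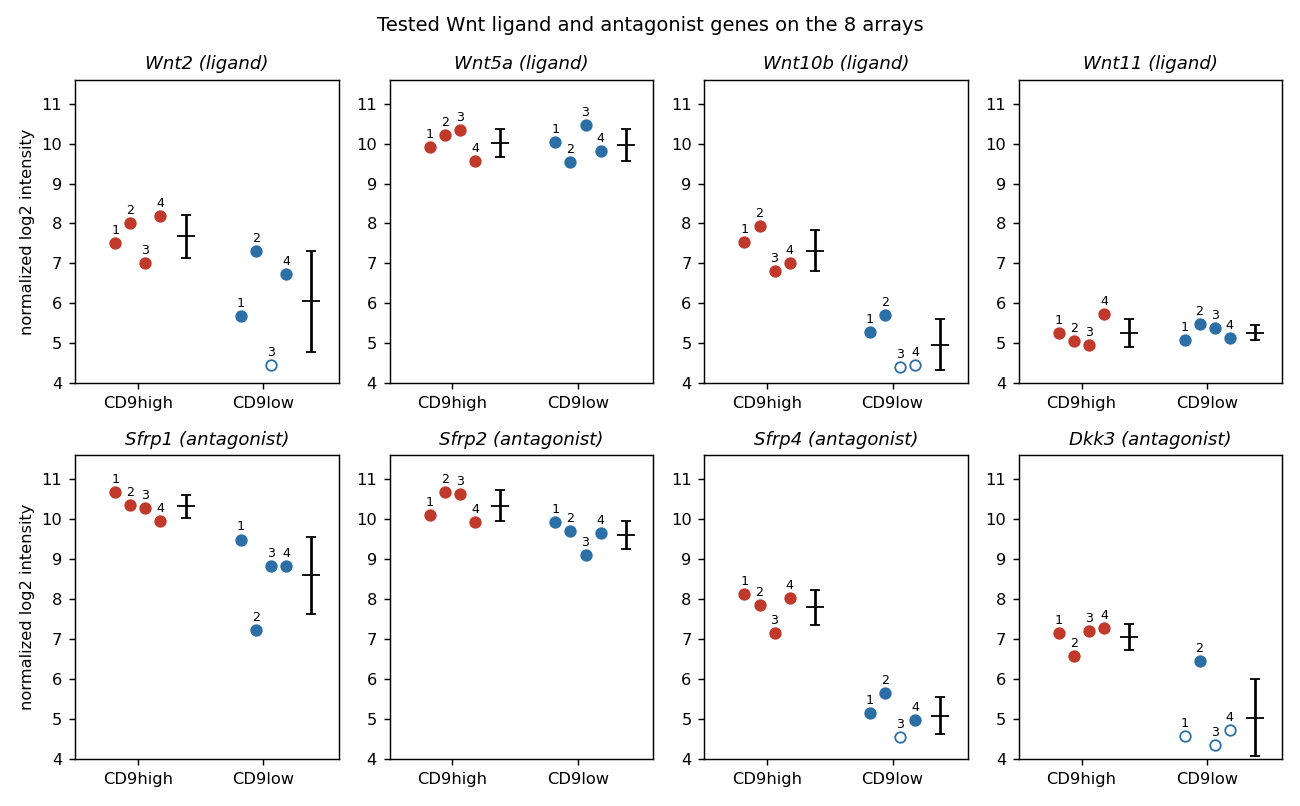
Normalized log2 intensity (y axis) of the 8 tested genes on each array, with red points for CD9high, blue for CD9low, replicate numbers beside them, open points where the probe was not above background, and black bars for mean ± SD (n = 4). Wnt10b, Sfrp4, Dkk3 and Sfrp1 show every CD9high array above every CD9low array, Wnt5a and Wnt11 overlap throughout, and CD9low replicate 2 is the highest CD9low array for Dkk3 and Wnt2 and the lowest for Sfrp1.

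Among the antagonists, Sfrp4 and Dkk3 rose in CD9high, Sfrp1 and Sfrp2 did not pass the test, and Wif1 and Dkk2 were not tested. None was lower past the threshold of the limma fit, and 0 were lower at an unadjusted p under 0.05. Sfrp4, a secreted frizzled-related protein gene, read 8.14, 7.86, 7.15 and 8.03 in CD9high replicates 1 to 4. In CD9low it read 5.15, 5.66, 4.54 and 4.98. The lowest CD9high array stood 1.49 above the highest CD9low array. The means were 7.79 ± 0.45 and 5.08 ± 0.46, a difference of 2.71 (SE 0.31, adjusted p = 0.00162), or 6.55-fold, the 16th largest increase of the 10724 genes. With an offset of 50 the difference was 1.91 (adjusted p = 0.00310). Deposited signals were 202, 215, 147 and 318 units in CD9high and 18.9, 19.2, 6.42 and 17.2 units in CD9low, where replicate 3 was not above background. The call held without any single array (adjusted p from 0.00101 to 0.0114). On slide 1 the difference was 2.60 (adjusted p = 0.0345), on slide 2 it was 3.05, and with the slide as a block the adjusted p was 0.00407. It was lost without replicate 1 of both fractions (adjusted p = 0.0557).

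Dkk3, a divergent Dickkopf gene whose part in Wnt signalling is debated, read 7.14, 6.59, 7.21 and 7.28 in CD9high replicates 1 to 4, and 4.58, 6.46, 4.36 and 4.73 in CD9low. CD9low replicate 2 lay only 0.12 below the lowest CD9high array and was the only CD9low array with signal above background, at 44.7 deposited units against 0.802 to 11.6 on the other CD9low arrays. The CD9high arrays gave 79.1 to 175 units. The means were 7.05 ± 0.32 and 5.03 ± 0.97, a difference of 2.02 (SE 0.43, adjusted p = 0.0457). With 3 of 4 CD9low arrays not above background its size depends on the offset added before taking logs, and an offset of 50 in place of 16 gave 1.27 (adjusted p = 0.0486). Without CD9low replicate 2 the difference was 2.50 (adjusted p = 0.000935). Without any other single array the call was lost, with adjusted p of 0.141, 0.0740, 0.135 and 0.116 without CD9high replicates 1 to 4 and of 0.133, 0.137 and 0.138 without CD9low replicates 1, 3 and 4. With the slide as a block it was also lost (adjusted p = 0.0720), as it was with a block by replicate number (adjusted p = 0.148). The difference was 1.85 on slide 1 (adjusted p = 0.298) and 2.55 on slide 2.

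The second kept Dkk3 probe gave 6.93, 6.21, 6.93 and 6.27 in CD9high replicates 1 to 4 and 4.38, 5.42, 4.39 and 4.34 in CD9low. Its fractions lay further apart, by 0.79 between the nearest arrays, and the difference of 1.95 passed the limma fit over all probes (SE 0.31, adjusted p = 0.0137). Over all 18085 probes tested, 0.829% passed as higher in CD9high. A further Dkk3 probe was detected on 1 of 8 arrays, and its values of 4.29 to 4.81 overlapped.

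Sfrp1, which encodes a Wnt-binding antagonist of the same family as Sfrp4, did not pass as a gene although its fractions did not overlap. The brightest probe read 10.69, 10.36, 10.29 and 9.97 in CD9high replicates 1 to 4 and 9.49, 7.22, 8.84 and 8.84 in CD9low. CD9low replicate 2 was far below the rest. The difference was 1.73 (SE 0.43, adjusted p = 0.0872, 95% confidence interval 0.79 to 2.67). Without CD9low replicate 2 it was smaller, 1.27, but passed (SE 0.25, adjusted p = 0.0337). The second probe read 9.63, 9.68, 9.92 and 9.63 in CD9high and 8.46, 6.89, 7.76 and 8.13 in CD9low. Its CD9high arrays lay close together, and its difference of 1.91 passed over all probes (SE 0.32, adjusted p = 0.0169). With the mean of both probes standing for the gene, Sfrp1 passed (difference 1.82, adjusted p = 0.0303).

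Sfrp2, another secreted frizzled-related protein gene, was bright in both fractions. Its arrays read 10.11, 10.69, 10.64 and 9.92 in CD9high replicates 1 to 4 and 9.94, 9.70, 9.11 and 9.65 in CD9low. The fractions overlapped only through CD9low replicate 1, which lay above CD9high replicate 4. The difference of 0.74 did not pass (SE 0.27, adjusted p = 0.326, 95% confidence interval 0.14 to 1.34), nor did it in any of the 23 alternative analyses. Wif1, whose product binds Wnts, was detected on 2 of 4 CD9high arrays and 1 of 4 CD9low arrays, 1 array short of the limit, with values of 4.53 to 5.12 and 4.39 to 5.05. Dkk2, which encodes a ligand of the co-receptors, was detected on 0 of 8 arrays. Wif1 thus gave a low signal on too few arrays to be tested, and a low signal of Dkk2 in these cells would not be detectable here.

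**Figure D2:**
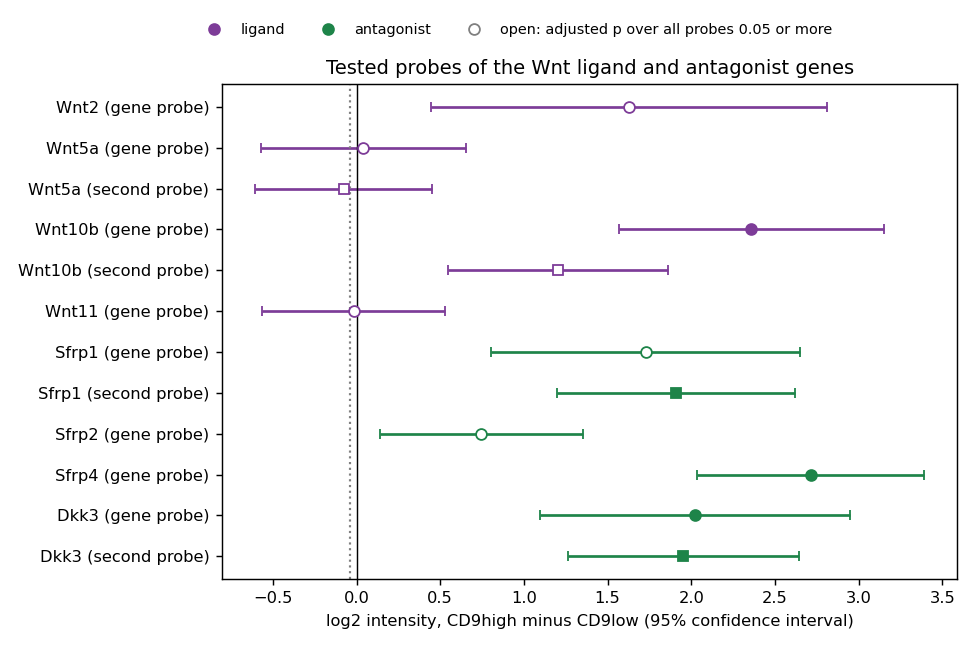
Difference in log2 intensity between CD9high and CD9low (x axis) with its 95% confidence interval for the 12 tested probes, circles for the probe that stands for a gene and squares for a second probe, purple for ligands and green for antagonists. Filled symbols passed an adjusted p of 0.05 over all 18085 probes (5 of 12), and the dotted line is the median of all genes at -0.04. Both probes of Dkk3 and of Sfrp1 lie between 1.73 and 2.02, and the second Wnt10b probe lies below the first.

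Read together, 3 of the 8 tested genes passed as higher in CD9high and 0 as lower, against 1.13% and 0.559% of all genes tested. The fractions did not overlap for 4 of the 8, each with CD9high above, against 3.92% of all genes tested. These shares are a description only, since the genes were chosen with results of these data known. Wnt10b, Wnt2, Sfrp4 and Dkk3, among them all 3 that passed, reached the detection limit only with their CD9high arrays. For the 4 genes without overlap the exact two-sided permutation p was 0.0286 each, unadjusted and the smallest that 4 against 4 arrays allow. Any gene without overlap gets this p, so it only restates the lack of overlap. Over all genes tested, 3.92% had CD9high above without overlap and 3.78% had CD9low above. The genes did not share 1 pattern within the fractions. In CD9low, replicate 2 was the highest array for Wnt10b, Wnt2, Wnt11, Sfrp4 and Dkk3 and the lowest for Sfrp1 and Wnt5a, whereas replicate 3 was the lowest for Wnt10b, Wnt2, Sfrp2, Sfrp4 and Dkk3 and the highest for Wnt5a. Over the 8 arrays, where the difference between fractions enters r, the highest correlation was that of Wnt10b and Sfrp4 (r = 0.97). Over deviations from the fraction means it was r = 0.74, below the r = 0.76 of Wnt2 and Sfrp4. These correlations are over arrays that share their library, signal level and fraction, and are given without a test.

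**Figure D3:**
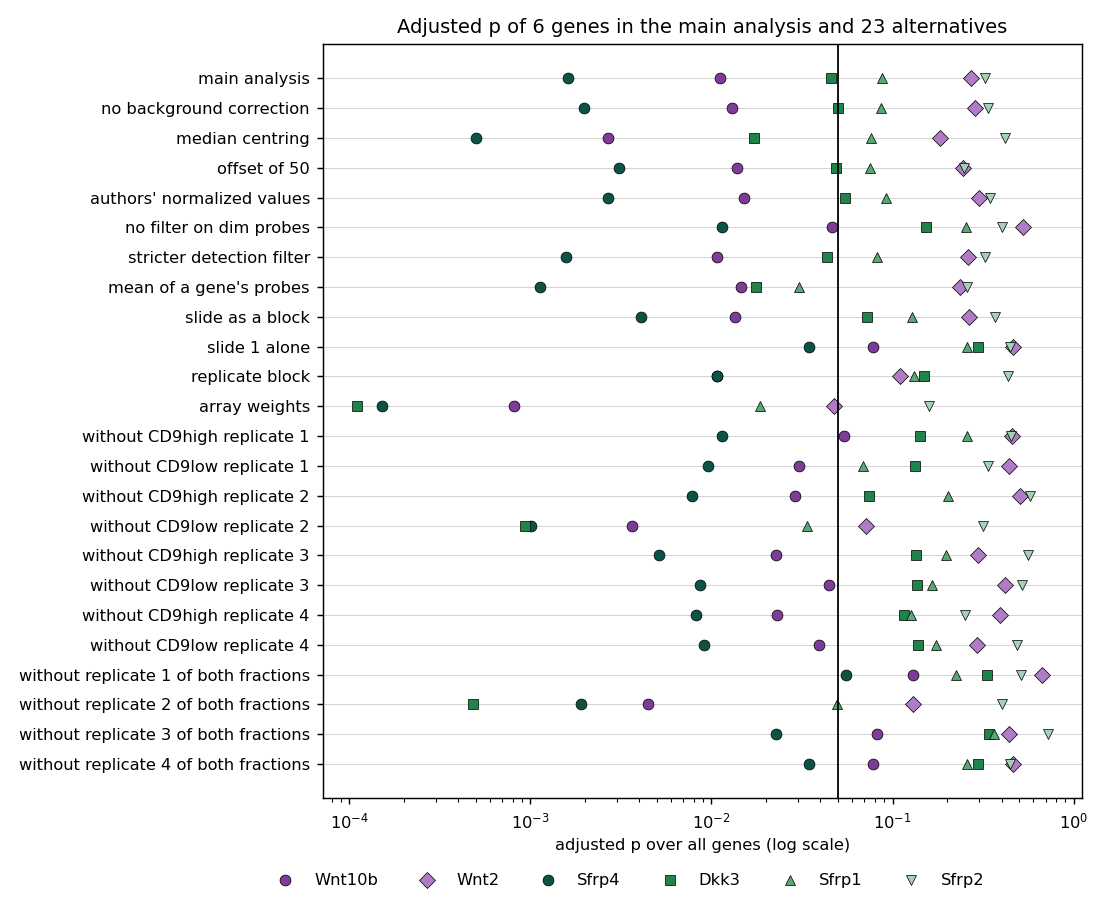
Adjusted p over all genes (x axis, log scale) of 6 genes in the main analysis and the 23 alternatives (rows), with the vertical line at 0.05. Sfrp4 lies left of the line in 22 of the 23 alternatives, Wnt10b in 18, Dkk3 in 8 and Sfrp1 in 4, while Sfrp2 lies right of it throughout and Wnt2 in all but 1.

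Of the other genes of the pathway, 90 on 8 lists, 57 were measured. In the limma fit 1 rose, 0 fell and 56 did not pass, where 1.13% of all genes tested passed as higher and 0.559% as lower. At an unadjusted p under 0.05 in that fit there were 9 of the 57, a threshold that 10.7% of all genes tested passed. The median difference of the 57 genes was 0.03, beside -0.04 over all genes tested. The riser was Fzd2, which encodes a Frizzled receptor. It read 7.43, 7.18, 7.65 and 7.76 in CD9high replicates 1 to 4 and 5.75, 6.69, 5.81 and 5.68 in CD9low. The groups did not overlap, and the difference was 1.52 (SE 0.28, adjusted p = 0.0235). The call was lost without any single array but CD9high replicate 2 or CD9low replicate 2 (adjusted p from 0.0685 to 0.0914 in the 6 that lost it). On slide 1 the difference was 1.34 (adjusted p = 0.206) and on slide 2 it was 2.07, and with the slide as a block the adjusted p was 0.0406. With a block by replicate number the Fzd2 call was lost (adjusted p = 0.112).

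The 17 measured receptors and co-receptors had a median of 0.27, and after Fzd2 the smallest p was that of Lrp4, a relative of the co-receptors (1.19, adjusted p = 0.275). Ligands other than the 4 described were mostly dark: 13 of 15 did not reach the detection limit, and Wnt5b (0.72, adjusted p = 0.384) and Wnt4 (0.00, adjusted p = 0.998) did not pass. Of 8 other secreted antagonists, only Frzb, which encodes a further frizzled-related protein, was measured, and it differed by -0.02 (adjusted p = 0.987). Wnt secretion was represented by Porcn, the acyltransferase that adds the lipid (-0.72, adjusted p = 0.493), and Wls, the carrier to the cell surface (0.61, adjusted p = 0.534). Among the R-spondins and their partners, 4 of 9 were measured. Rspo1, which encodes a secreted enhancer of Wnt signals, differed by 0.83 (adjusted p = 0.126) with no overlap, and Znrf3, a ligase gene that removes Frizzled receptors, by -0.27 (adjusted p = 0.779).

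Inside the cell, the 12 measured cytoplasmic transducers had a median of 0.01 and the 11 nuclear effectors one of -0.04. The smallest p among them were those of the kinase genes Csnk1e (-0.90, adjusted p = 0.328) and Gsk3a (0.50, adjusted p = 0.556), and of Tcf7l1 (-0.58, adjusted p = 0.422), a TCF factor gene, and Pygo2 (-0.55, adjusted p = 0.558). The 8 measured Wnt target genes had a median of 0.44, with 6 above 0 and 0 past the test. Over all genes tested, 4894 of 10724 were above 0. The 2 target genes below 0 were Myc (-0.69, adjusted p = 0.647) and Nkd1 (-0.28, adjusted p = 0.722). Axin2, a widely used readout of beta-catenin signalling that encodes a feedback inhibitor, read 6.92, 6.53, 5.81 and 6.15 in CD9high replicates 1 to 4 and 5.74, 5.00, 4.97 and 5.17 in CD9low. The groups did not overlap, but the difference of 1.14 missed the threshold (SE 0.29, adjusted p = 0.104). Nkd2, which encodes another feedback inhibitor, differed by 0.84 without overlap (SE 0.23, adjusted p = 0.124). The fractions did not overlap for 6 of the 57 genes. Fzd2, Rspo1, Ctnnb1 (beta-catenin itself), Axin2 and Nkd2 had CD9high above, and Csnk1e had CD9low above. Ctnnb1 differed by only 0.37 and did not pass (adjusted p = 0.608). Its nearest arrays almost touched, with CD9high replicate 4 at 11.37 and CD9low replicate 3 at 11.35. Over all genes tested, 3.92% had CD9high above without overlap and 3.78% had CD9low above, so only the total of 6 is near the background. By direction, 5 of the 57 had CD9high above and 1 had CD9low above, a split that was not tested.

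**Figure D4:**
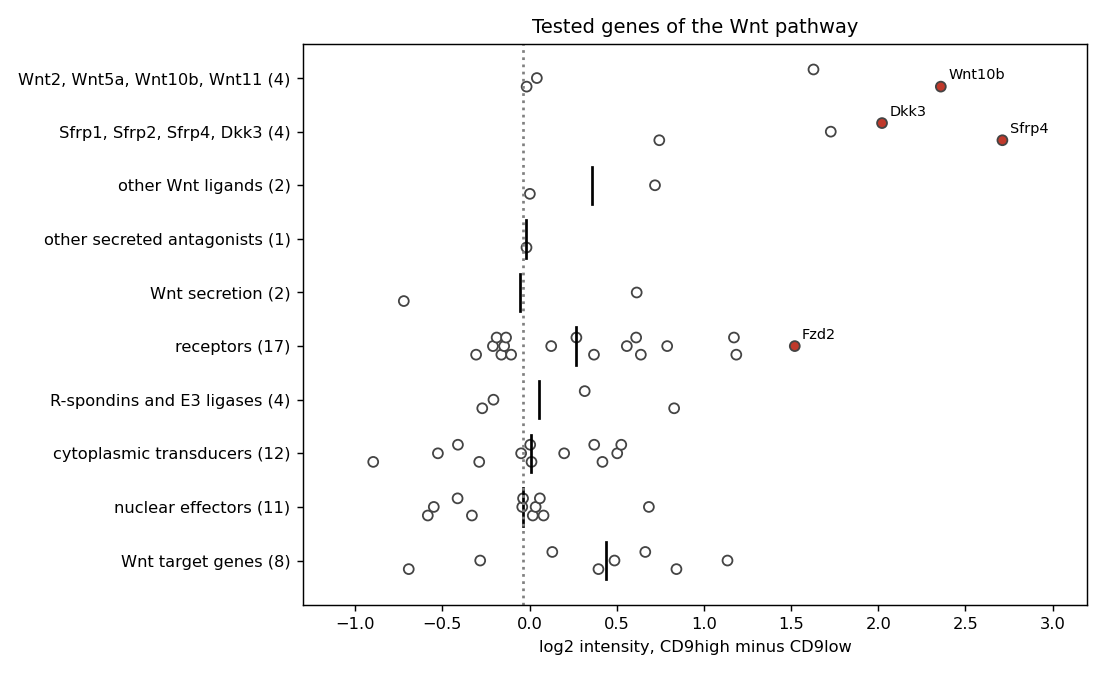
Difference in log2 intensity, CD9high minus CD9low (x axis), of every measured gene of the Wnt pathway by list, with the number measured in brackets, red points for genes past an adjusted p of 0.05, black bars for list medians (not drawn for the 2 top lists, chosen with results known) and a dotted line for the median of all genes. Wnt10b, Sfrp4, Dkk3 and Fzd2 are the genes past the test, and cytoplasmic transducers and nuclear effectors are centred near 0.

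For each ligand or antagonist that passed, the 3 genes with the most similar values over the 8 arrays were taken by Pearson correlation. Those nearest to Wnt10b were Smpd3 (r = 0.97), Clec11a (r = 0.97) and Wfdc1 (r = 0.97), of which Clec11a and Wfdc1 rose (1.55, adjusted p = 0.0111, and 1.52, adjusted p = 0.0188). For Sfrp4 they were Bag1 (r = 0.99), Sema3e (r = 0.98) and Duox1 (r = 0.98), of which Sema3e and Duox1 rose (1.41, adjusted p = 0.0123, and 1.73, adjusted p = 0.0148). For Dkk3 they were Sulf1, which encodes a heparan sulfate editing enzyme (r = 0.98), the collagen gene Col16a1 (r = 0.98) and the thrombospondin gene Thbs3 (r = 0.98), and none of them passed. Over deviations from the fraction means, r was 0.77 to 0.88 for the genes nearest Wnt10b. It was 0.74 to 0.91 for those nearest Sfrp4 and 0.93 to 0.97 for those nearest Dkk3. The deviation of Dkk3 was largest in CD9low replicate 2 (1.43), and r without that array was not computed. The genes named here are the nearest of all genes tested over only 8 arrays that fall into 2 groups. They are given as a description.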

How the data were processed

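Expression was measured on Illumina bead arrays in 8 samples, assigned to fractions by their titles. The source label of the CD9low samples speaks of high CD9, and the sorting text repeats a single gate; the titles and the cell type label were followed. Per the labels' protocols, total RNA was amplified (Ovation Pico WTA System V2) and biotin labelled. The authors deposited signal intensity values for 45281 probes, which by their differing medians and negative values are not normalized between arrays and have a background subtracted. Per the submitters' processing notes the software was GenomeStudio (version not given in the sources used here). A detection p-value per probe and array is in the same deposited table. A second deposited table of intensity values, quantile normalized judging by the values, served as an alternative. Gene symbols came from the platform annotation: 34885 probes had 1 symbol, 18 several and 10378 none. Of the named probes' gene identifiers, 34807 were found among RefSeq genes of GRCm38.p6, and 0 symbols changed. No build is named for the probes, and their sequences were not checked against similar genes.

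With limma 3.58.1 in R 4.3.3, neqc (normexp, offset 16, quantile normalization, log2) was run, which compresses the differences of dim probes. Probes with detection p under 0.05 on at least 4 arrays were tested, 18085 in all. The fractions were compared without a block (lmFit, eBayes), and 23 alternatives were run. The procedure was tested on simulated data with a common spread for all genes and no poor array, which cannot decide single calls here. The threshold was an adjusted p of 0.05. The number of arrays limits the precision. Genes named are the 10 chosen, Cd9, and in each other pathway list those past the test and the 2 with the smallest p. Also named are the 3 genes most similar to each chosen gene that passed, and, for some counts of 5 or fewer, the listed genes behind them. Dpp4, of the progenitor markers, falls under the last. The genes, lists and tests were chosen with earlier results of these data known.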

Additional observations from a re-analysis of the deposited data

Results flagged for a closer look

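Within a fraction, 2 of the 24 groups of 4 values formed by the 12 tested probes and the 2 fractions held an array far from the other 3, where chance flags about 1 in 20 groups, or 1.2 of 24. The second Dkk3 probe read 5.42 in CD9low replicate 2 against 4.34 to 4.39 on the other CD9low arrays. The second Wnt10b probe read 4.29 in CD9low replicate 3 against 4.60 to 4.65 on the other CD9low arrays, all of them not above background.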

How the results depend on the processing

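The 23 alternatives changed no direction of a gene past the test, and 0 ligands, antagonists or other pathway genes were called lower in any. Wnt10b passed in 18, Sfrp4 in 22 and Dkk3 in 8; Dkk3 also missed the threshold with the authors' normalized values (adjusted p = 0.0549) and without a filter on dim probes (0.153). Wnt5a and Wnt11, whose intervals include 0, changed sign: Wnt5a was -0.018 with the mean of a gene's probes, -0.038 with array weights, -0.10 to 0.21 without single arrays and -0.17 without replicate 2 of both fractions; Wnt11 was 0.048 with median centring, -0.18 to 0.083 without single arrays, and 0.12 without replicate 2 or replicate 3 of both fractions. Of all genes, 121 were called higher and 60 lower: 275 and 147 with array weights, 35 and 13 on slide 1 alone (the same arrays as without replicate 4 of both fractions), 32 lower with median centring, 36 to 158 and 18 to 72 without single arrays, and 15 to 190 and 3 to 80 without a replicate number of both fractions. The ligand count of 1 was 2 with array weights, 0 on slide 1, 0 to 1 without single arrays and 0 to 1 without a replicate number. The antagonist count of 2 was 1 with the authors' values, without the dim filter, with the slide block and on slide 1, 1 to 3 without single arrays and 0 to 3 without a replicate number. The other pathway count of 1 was 4 with array weights, 0 without the dim filter and on slide 1, 0 to 2 without single arrays and 0 to 4 without a replicate number. The fractions share replicate numbers, but the labels do not say whether same-numbered samples are pairs. Only 3 of 4 same-numbered pairs had deviations correlated above 0.1 (0.22, -0.10, 0.18 and 0.16). Not every sample correlated best with its own number, so the main fit did not pair them. These correlations cannot decide it, since the pair at -0.10 holds CD9low replicate 2, the array that correlated least with its own fraction. With a replicate block, 56 genes were called higher and 20 lower, 1 ligand (Wnt10b, adjusted p = 0.0107), 1 antagonist (Sfrp4, 0.0107; Dkk3 0.148) and 0 other pathway genes (Fzd2, 0.112). Signal over background limits Dkk3, Wnt10b and Wnt11. It also limits the size of the difference for Sfrp4 and Wnt2, which were not above background in CD9low replicate 3.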
